A study of Mus musculus with 12 samples.

Results

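The response of the ankle joint to arthritogenic serum was described in mice with an intact Mmp8 gene, by setting 3 arthritic Mmp8+/+ ankles against 3 control Mmp8+/+ ankles. These are the 6 arrays labelled wild type among the 12 of the series, and the other 6 are from Mmp8-/- mice, which served here in the estimate of the spread between mice and in the mean signal by which features were kept for testing. Arthritic mice received 150 µl of pooled serum from K/BxN mice by injection, with the first dose on day 0, the second on day 2 and the joints taken on day 7. Per the study's methods they were males of 6 to 8 weeks, born to Mmp8+/- parents whose line had been backcrossed for 12 generations into C57BL/6. The labels give the others as control mice, and the study describes its controls as mice without arthritis. Whether the controls were injected is not in the labels. Each array holds RNA of 1 mouse, from a whole ankle joint that was pulverised, so that bone, marrow, cartilage, synovium, tendon, fat, muscle, nerve and skin are measured together. In such bulk tissue, fewer cells of a type and less RNA per cell cannot be told apart.

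K/BxN mice make antibodies against glucose-6-phosphate isomerase, an enzyme of glycolysis. Transferred serum lets these antibodies coat cartilage surfaces, where complement, Fc receptors, mast cells and neutrophils start a synovitis that needs no T or B cells of the recipient. The inflamed synovium thickens into pannus, bone and cartilage are eroded, and the animal uses the joint less. Matrix genes, cytokines and chemokines, and lipid genes are the best known parts of this response. These groups, with the proteases of the matrix and with inflammation and detoxification genes, were set aside when genes were picked by size, so the account below is of transporters, receptors, enzymes, regulators and the cells of the joint.

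Signals are given in log2 units, as normalised by the authors, in the order of replicates 1, 2 and 3 of each group, and a difference of 1 is a 2-fold change. Differences are arthritic minus control with their standard error (SE), and each adjusted p is from the limma fit over all genes. An array carries no read depth, and the number of mice limits the precision.

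Marker genes of the ankle were measured in both groups. The lubricin gene Prg4 lay between 12.98 and 13.47 over the 6 arrays, the cartilage collagen gene Col2a1 between 8.91 and 9.52, and Krt10 of the epidermis between 9.28 and 12.03. Mmp8, the gene that defines the genotypes, had signals of 10.3, 11.16 and 11.09 in the controls and 10.21, 10.69 and 10.58 in the arthritic ankles, as high as the labels call for. Control replicate 1 went against the stated sex. In it Xist, the transcript of the inactive X chromosome, had a signal of 10.42, against 4.87 and 5.15 in the other controls, and Eif2s3y of the Y chromosome had 4.02, against 9.25 and 9.27. The Mmp8-/- controls enter only the spread and the choice of features. Among them, replicate 1 also had Xist signal (10.92), and replicate 2 had Mmp8 signal (10.65).

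Of 16956 genes tested, 3216 differed between arthritic and control ankles at a false discovery rate (FDR) of 5%, which is 19.0% of all genes. Of these, 1283 were higher in arthritis, or 7.57% of all genes, and 1933 were lower, or 11.4%. Large changes were more often falls: 267 genes were higher by at least 2-fold and 769 were lower by at least 2-fold. The median difference over all genes was 0.03. At an FDR of 1% there were 1477 genes, 504 higher and 973 lower. Of the 3216 genes called at 5%, 3161 had groups that did not overlap. Where non-overlap is given below, it is therefore a trait of nearly all called genes. Ordinary linear regression over the 6 arrays called 775 genes. Of the 52 counts of 5 or more genes that the lists below give in 1 direction, it left 5 within 1.5 times and 6 at 0. The counts also depended on single mice. Without control replicate 1, whose Xist signal is given above, 1935 genes were called (688 higher, 1247 lower), and without arthritic replicate 1 there were 1958 (698 higher, 1260 lower). The higher genes also numbered 853 without control replicate 2 and 838 without arthritic replicate 2. Genes called in the full fit and again in each of the 6 fits that left out 1 Mmp8+/+ array numbered 1478, with 512 higher and 966 lower.

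**Figure D1:**
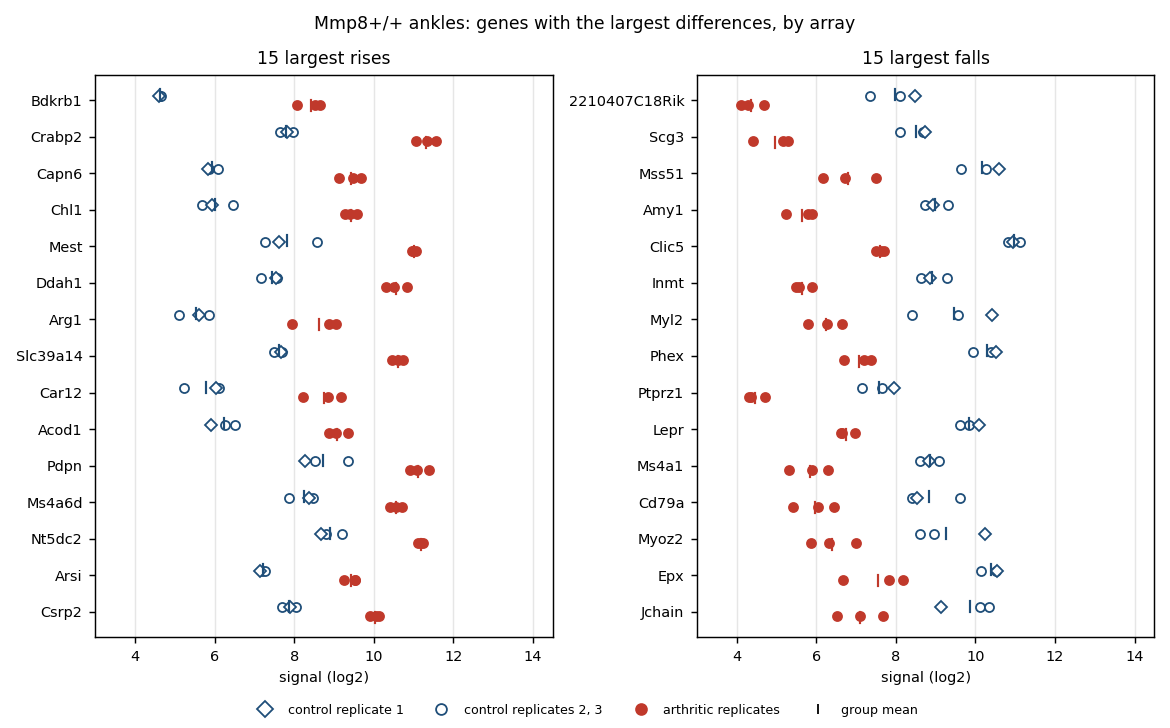
Log2 signal (horizontal axes) of the 15 genes with the largest rises and the 15 with the largest falls outside matrix, cytokine and lipid genes, in each Mmp8+/+ ankle. Open symbols are controls, with replicate 1 as a diamond, filled symbols are arthritic mice and ticks are group means. The 30 genes were picked among those whose groups do not overlap, and the widest gap between groups is that of Bdkrb1, at 4.61 to 4.64 in controls and 8.08 to 8.64 in arthritic ankles.

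Outside the genes set aside, the largest measured rise was that of Bdkrb1, the kinin B1 receptor. It is a receptor for bradykinin fragments that is known to be induced in injured tissue. Its signals were 4.61, 4.62 and 4.64 in the controls and 8.64, 8.08 and 8.53 in the arthritic ankles. All 3 controls lay under 4.93, the lowest mean signal of any feature tested, so the gene was kept through its signal in arthritic mice, and only a bound can be given. Against that lowest signal the arthritic ankles were at least 11.2-fold higher, and the measured difference was 3.79 ± 0.18 (SE, adjusted p = 1.76e-08). The constitutive B2 receptor gene, Bdkrb2, was at 6.69, 7.08 and 6.97 against 7.56, 7.0 and 6.63, with overlapping groups and a difference of 0.15 ± 0.32.

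Crabp2, which carries retinoic acid to its nuclear receptor, had signals of 7.81, 7.63 and 7.97 in the controls against 11.57, 11.07 and 11.33. All arthritic values were at least 3 units above the highest control, and the difference was 3.52 ± 0.18 (adjusted p = 3.11e-08). Capn6, a calpain without protease activity, went from 5.84, 6.09 and 5.86 to 9.49, 9.13 and 9.68, a rise of 3.50 ± 0.22 (adjusted p = 2.22e-07). Chl1, an adhesion molecule of the L1 family known from growing axons, went from 5.93, 6.45 and 5.68 to 9.41, 9.58 and 9.28, a rise of 3.40 ± 0.22 (adjusted p = 2.28e-07). For all 3 genes the spread within a group was below 1 unit, and non-overlap of the groups was a condition of being picked.

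Genes of arginine and itaconate metabolism were among the largest rises as well. Arg1, arginase, a gene of activated myeloid cells, was at 5.61, 5.1 and 5.85 in the controls and at 9.05, 7.94 and 8.88 in arthritis (difference 3.10 ± 0.30, adjusted p = 1.13e-05). Acod1, the enzyme that makes itaconate in activated macrophages, was at 5.92, 6.26 and 6.52 against 9.34, 8.87 and 9.04 (2.85 ± 0.18, adjusted p = 1.81e-07). Both were picked, like the other largest rises, among genes whose groups do not overlap. Ddah1, which breaks down methylarginines that inhibit nitric oxide synthases, rose from 7.55, 7.57 and 7.17 to 10.3, 10.83 and 10.52, by 3.12 ± 0.22 (adjusted p = 6.09e-07).

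The other genes among the 15 largest rises were Mest (3.18), Slc39a14 (2.99), Car12 (2.96), Pdpn (2.40), Ms4a6d (2.32), Nt5dc2 (2.29), Arsi (2.23) and Csrp2 (2.16). Pdpn encodes podoplanin, a surface protein of lining fibroblasts and lymphatic endothelium, Arsi an arylsulfatase and Csrp2 a LIM domain protein. Each of the 15 was also called in all 6 fits without 1 array.

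The largest falls outside the genes set aside were of several kinds. Clic5, a chloride intracellular channel protein, fell with the least spread, from 10.95, 11.11 and 10.82 to 7.62, 7.51 and 7.71 (-3.35 ± 0.17, adjusted p = 3.11e-08). Scg3, a secretogranin of secretory granules, was at 8.74, 8.69 and 8.11 in the controls and 4.4, 5.29 and 5.16 in arthritis (-3.56 ± 0.29, adjusted p = 2.4e-06). Lepr, the leptin receptor, was at 10.08, 9.85 and 9.62 against 6.63, 6.65 and 6.96 (-3.10 ± 0.23, adjusted p = 1.04e-06). In each of them the highest arthritic ankle was at least 2 units below the lowest control. Phex, an endopeptidase of osteocytes and osteoblasts that restrains loss of phosphate, was at 10.52, 10.38 and 9.95 against 7.19, 6.69 and 7.37 (-3.20 ± 0.44, adjusted p = 0.000207).

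The remaining falls among the 15 were those of 2210407C18Rik, Mss51 (-3.36), Amy1 (-3.35), Inmt (-3.27), Myl2 (-3.23), Ptprz1 (-3.13), Ms4a1 (-3.01), Cd79a (-2.87), Myoz2 (-2.87), Epx (-2.85) and Jchain (-2.77). Mss51, Myl2 and Myoz2 are genes of striated muscle, Ms4a1, Cd79a and Jchain of the B lineage, and Epx encodes the peroxidase of eosinophils. In 2210407C18Rik and Ptprz1 every arthritic value lay under the lowest mean signal tested, so their falls are at least 8.32-fold and 6.31-fold. All 15 were called in each of the 6 fits without 1 array.

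**Figure D2:**
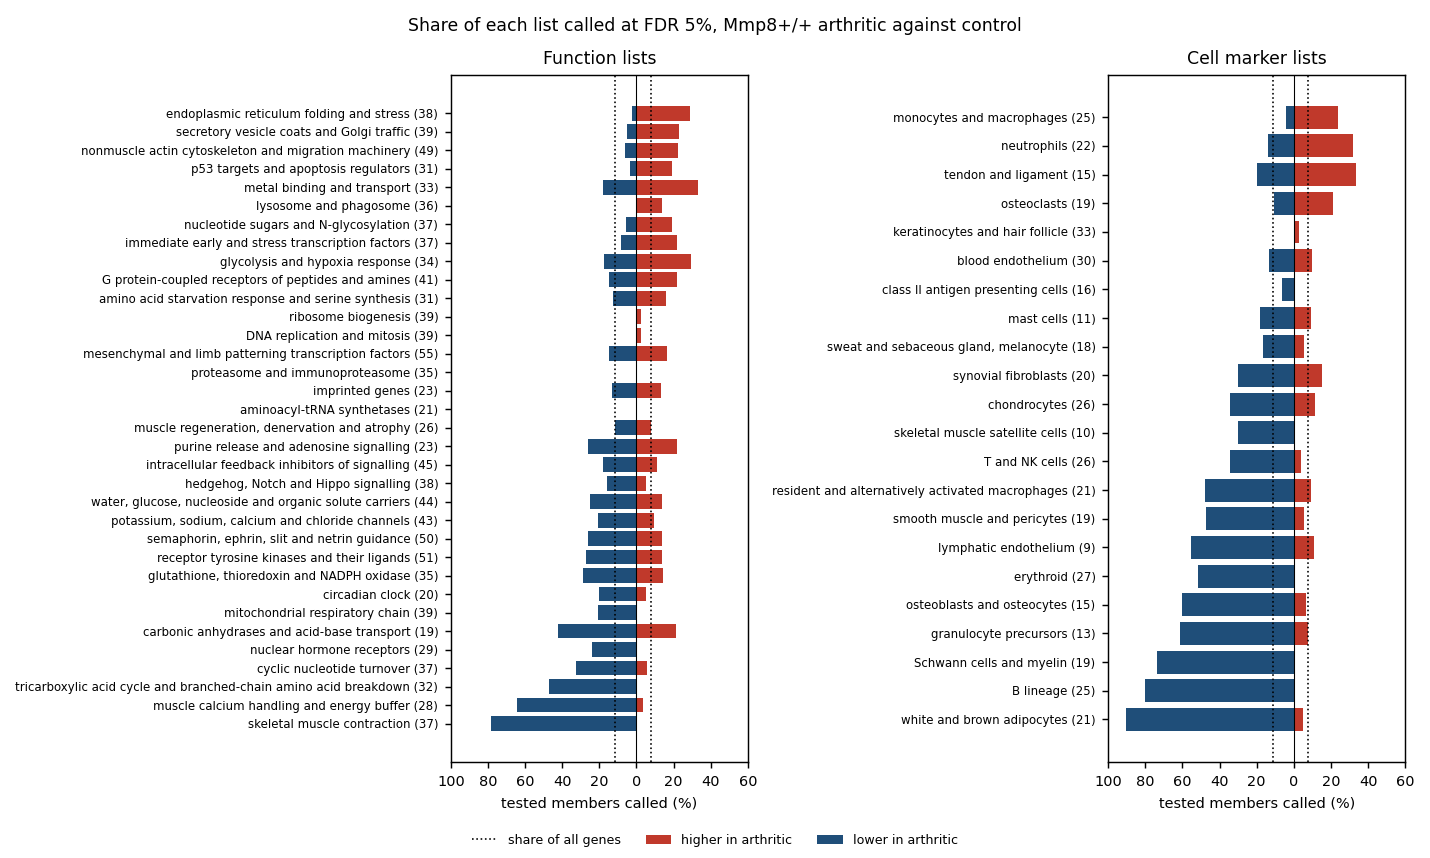
Share of the tested members of each gene list (number in brackets) called at an FDR of 5%, with genes higher in arthritic ankles to the right in red and genes lower to the left in blue. Dotted lines are the shares over all genes, 7.57% higher and 11.4% lower. Adipocyte, B lineage, muscle and myelin lists reach far to the left, and no list reaches as far to the right.

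The 34 lists of function and 22 lists of cell markers are read against those shares. Skeletal muscle is attached around the ankle, and its contractile genes had the highest share of falls among the lists of function. Of 37 genes of contraction, 29 were lower and 0 higher, with a median difference of -1.40. Myl2, the slow regulatory light chain, was at 10.41, 8.41 and 9.57 in the controls against 6.28, 6.64 and 5.78 (-3.23 ± 0.43, adjusted p = 0.000147). Myoz2, a protein of the Z disc, was at 10.23, 8.61 and 8.97 against 6.31, 5.87 and 7.01. Both groups were wide, with control replicate 1 the highest value for each gene, and non-overlap was a condition of being picked.

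Of the 28 genes of muscle calcium handling and energy buffering, 18 fell and 1, Sln, rose, with a median of -1.13. Ckmt2, mitochondrial creatine kinase, was at 9.44, 7.72 and 8.26 against 5.72, 5.56 and 6.33 (-2.61 ± 0.43, adjusted p = 0.000868). Pvalb, the calcium buffer of fast fibres, was at 11.89, 10.5 and 11.81 against 7.34, 8.55 and 10.41, so that the highest arthritic ankle was 0.09 below the lowest control, and its adjusted p went from 0.0158 to 0.0631 without control replicate 1. Muscle signal differed between mice of a group: the mean signal of the contraction list was 10.49, 9.33 and 9.73 in the controls and 7.85, 8.33 and 8.85 in the arthritic ankles. Without control replicate 1 the falls numbered 17 in the contraction list and 8 in the calcium list, without arthritic replicate 1 they numbered 19 and 8, and without arthritic replicate 2 those of the calcium list numbered 10. Ordinary regression called 0 falls in the contraction list and 1 in the calcium list. How much of the dissected muscle entered each sample was not tested.

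Of 26 genes of muscle regeneration, denervation and atrophy, 2 were higher and 3 lower, with a median of -0.04, and the share called, 19.2%, is that of all genes. The rises numbered 0 without control replicate 2 or 3 or arthritic replicate 2, and 1 without arthritic replicate 1 or 3, and the falls numbered 1 without control replicate 1 or arthritic replicate 1 or 3. Ankrd1, a stretch responsive repressor, was at 7.74, 6.07 and 7.05 in the controls and 7.95, 8.42 and 9.07 in arthritis (1.53 ± 0.45, adjusted p = 0.03). Mstn, the inhibitor of muscle growth, was at 7.57, 6.15 and 6.33 against 5.31, 5.15 and 5.49 (-1.37 ± 0.31, adjusted p = 0.0076). Ankrd1 was called in 2 of the 6 fits without 1 array and Mstn in all 6. Of the 10 markers of satellite cells, the stem cells of muscle, 3 fell and 0 rose, among them Itga7 (-1.32) and Megf10 (-1.32).

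In oxidative metabolism the calls were all falls. Of 39 respiratory chain genes, 8 fell and 0 rose, with a median of -0.32 and called in 20.5%, close to the background. The largest falls were those of Cox7a1 (-2.45 ± 0.38) and Cox8b (-2.30 ± 0.44), subunits of cytochrome oxidase in muscle and brown fat, and of Ppargc1a (-1.20 ± 0.25), the coactivator of mitochondrial biogenesis. In the tricarboxylic acid cycle and the breakdown of branched-chain amino acids 15 of 32 fell and 0 rose, with a median of -0.58. Aldh6a1, which acts in valine breakdown, was at 9.87, 10.65 and 10.32 against 8.83, 8.54 and 8.6 (-1.62 ± 0.25, adjusted p = 0.000428). Its groups were apart and it was called in all 6 fits without 1 array. The count of respiratory chain falls was 4 without control replicate 1, and 5 without control replicate 3, arthritic replicate 1 or arthritic replicate 2, and that of the cycle and amino acid list was 7 without control replicate 1 and 9 without arthritic replicate 1 or 2. Ordinary regression called 0 and 3 falls in the lists.

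Genes of glycolysis changed in both directions. Of 34 genes of glycolysis and of the hypoxia response, 10 rose and 6 fell, so that 47.1% were called with a median of 0.02. The genes that fell furthest were the muscle isoforms Eno3 (-2.74 ± 0.51), Pgam2 (-1.97 ± 0.44) and Pfkm (-1.72 ± 0.37). Widely expressed isoforms of the last pair were higher: Pgam1 went from 9.73, 9.76 and 9.75 to 10.63, 10.47 and 10.47 (0.78 ± 0.15, adjusted p = 0.00204), and Pfkl from 7.81, 8.05 and 8.05 to 8.7, 8.65 and 8.77 (0.74 ± 0.14, adjusted p = 0.00238). For both the controls were tight and did not reach the arthritic values. Another phosphofructokinase gene, Pfkp, was at 9.62, 9.33 and 9.45 against 9.11, 8.99 and 9.78, with overlapping groups. Of the falls, 0 were called by ordinary regression.

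Pgk1 (0.55), Pkm (0.56) and the lactate carriers Slc16a1 (1.0) and Slc16a3 (0.60) rose too. Hif1a, the oxygen regulated transcription factor, had signals of 10.21, 10.17 and 10.03 in the controls and 11.82, 11.64 and 11.7 in arthritis, a 3.0-fold rise (1.58 ± 0.17, adjusted p = 2.45e-05). Its protein, which oxygen controls, was not measured. Car12, a membrane carbonic anhydrase known as a target of hypoxia, was at 6.03, 6.1 and 5.22 against 8.21, 8.85 and 9.17 (2.96 ± 0.33, adjusted p = 3.82e-05). Ndrg1 (-0.88) and Bnip3 (-0.72), which are also classed with the hypoxia response, fell.

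Carbonic anhydrases, which interconvert carbon dioxide and bicarbonate, changed in both directions. Of 19 genes of this family and of acid-base transport, 4 rose and 8 fell. Beside Car12, Car13 went from 8.05, 8.61 and 7.56 to 9.49, 9.45 and 9.46 (1.39 ± 0.24, adjusted p = 0.00131). Car1, an isoform of red cells, was at 9.81, 10.66 and 9.86 against 5.3, 8.39 and 8.75 (-2.63 ± 0.71, adjusted p = 0.0184), with arthritic replicate 1 far below the other 2. Car2 (-1.85), Car8 (-2.06) and Car3 (-1.53), the last abundant in muscle and fat, fell, as did the anion exchangers Slc26a7 (-2.34) and Slc4a1 (-2.05), the latter of red cells.

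Genes of metal handling changed in both directions. Metallothioneins bind zinc and copper and are switched on by the metal sensing factor MTF-1 through metal response elements in their promoters, and zinc and iron are drawn into tissue during inflammation by importers of the Slc39 family. The promoters of Mt1 and Mt2 are shown because both genes rose and because their metal response elements are the textbook case. The letters are the 250 bases before the RefSeq gene start in GRCm38.p6, 5′ to 3′ on the gene's strand, Mt1 at chr8:94178839-94179088 and Mt2 at chr8:94172368-94172617, both on the plus strand, and capitals mark each match to TGCACNC or TGCGCNC on either strand.
Mt1: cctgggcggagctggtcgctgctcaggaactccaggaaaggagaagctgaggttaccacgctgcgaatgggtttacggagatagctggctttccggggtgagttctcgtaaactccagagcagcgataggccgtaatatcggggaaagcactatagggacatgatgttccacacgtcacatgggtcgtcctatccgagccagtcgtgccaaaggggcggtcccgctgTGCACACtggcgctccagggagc
Mt2: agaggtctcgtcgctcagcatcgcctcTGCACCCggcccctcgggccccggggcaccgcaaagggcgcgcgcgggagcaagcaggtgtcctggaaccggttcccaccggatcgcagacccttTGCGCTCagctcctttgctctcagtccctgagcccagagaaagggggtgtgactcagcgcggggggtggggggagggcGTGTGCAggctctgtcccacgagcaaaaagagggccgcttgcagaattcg
The window of Mt1 held 1 match and that of Mt2 held 3. The element is short, and 31.5% of the 13331 tested genes with a promoter sequence held at least 1 match, as did 10 of the 27 genes of the metal list.

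In the metal list 11 of 33 genes rose and 6 fell, 51.5% in all, with a median of 0.29. Slc39a14, which imports zinc and iron, was at 7.67, 7.7 and 7.49 in the controls and 10.74, 10.61 and 10.47 in arthritis, a 7.95-fold rise (2.99 ± 0.17, adjusted p = 6.48e-08). Mt2 rose from 9.6, 9.48 and 9.79 to 11.92, 11.81 and 11.35 (2.07 ± 0.17, adjusted p = 2.43e-06), and Mt1 from 10.48, 10.91 and 10.96 to 11.66, 12.03 and 11.44 (0.93 ± 0.19, adjusted p = 0.00378). In these 3 genes every arthritic ankle was above every control. The metalloreductases Steap1 (1.70 ± 0.22) and Steap2 (0.94 ± 0.21) rose with them.

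Of the 6 genes of the list that fell, Cp, Trf and Slc40a1 act in iron export and its transport in blood. Cp, ceruloplasmin, the copper oxidase that helps load iron on transferrin, was at 11.01, 11.11 and 10.82 against 9.1, 8.35 and 8.88 (-2.21 ± 0.29, adjusted p = 0.000117). Trf, transferrin, fell from 11.53, 11.73 and 11.83 to 10.25, 10.05 and 10.26 (-1.51 ± 0.18, adjusted p = 6.17e-05), and Slc40a1, ferroportin, the iron exporter, from 10.72, 10.77 and 10.58 to 9.15, 9.01 and 9.57 (-1.45 ± 0.21, adjusted p = 0.00032). None of the 3 overlapped between groups. The haptoglobin receptor gene Cd163 (-1.16), Ltf (-1.18) and Tfrc (-1.0) fell as well, and these belong to macrophages, granulocytes and red cell precursors, whose lists are given further on. Without control replicate 1, arthritic replicate 1 or arthritic replicate 2 the metal rises numbered 7, and without control replicate 3 or arthritic replicate 3 they numbered 6, while Slc39a14, Mt1, Mt2, Steap1 and Steap2 were called in each of those fits.

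**Figure D3:**
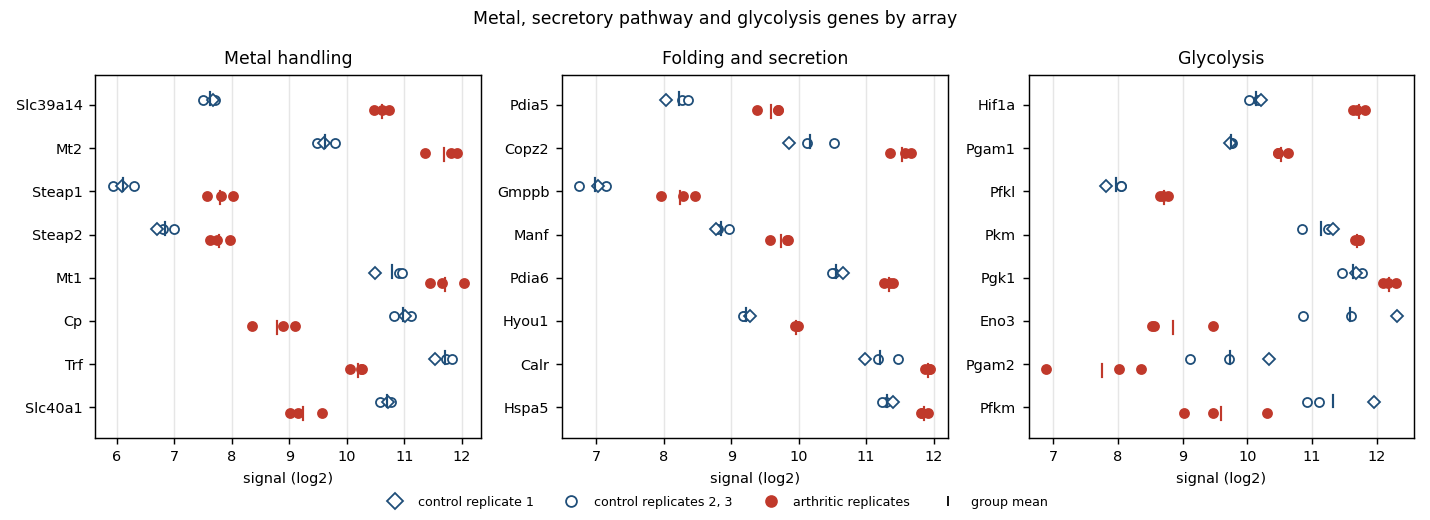
Log2 signal (horizontal axes) of genes of metal handling, of folding and secretion, and of glycolysis in each Mmp8+/+ ankle, with open symbols for controls (replicate 1 as a diamond), filled symbols for arthritic mice and ticks for group means. Importers, metallothioneins and chaperones lie higher in arthritis, while Cp, Trf, Slc40a1 and the muscle isoforms Eno3, Pgam2 and Pfkm lie lower.

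Genes of the secretory pathway, from the endoplasmic reticulum to the Golgi, rose more often than they fell. Proteins that leave the cell are folded by chaperones and disulfide isomerases, whose genes carry the endoplasmic reticulum stress element (ERSE) that ATF6 and XBP1 use. Shown are the promoters of the genes of the folding list that rose and hold an ERSE, read as CCAAT and, 9 bases further on, CCACG on either strand, with capitals marking the match. They are again 250 bases before the RefSeq start in GRCm38.p6, Hspa5 at chr2:34771840-34772089 (plus strand), Calr at chr8:84846932-84847181 (minus), Pdia6 at chr12:17266339-17266588 (plus) and Creld2 at chr15:88819396-88819645 (plus).
Hspa5: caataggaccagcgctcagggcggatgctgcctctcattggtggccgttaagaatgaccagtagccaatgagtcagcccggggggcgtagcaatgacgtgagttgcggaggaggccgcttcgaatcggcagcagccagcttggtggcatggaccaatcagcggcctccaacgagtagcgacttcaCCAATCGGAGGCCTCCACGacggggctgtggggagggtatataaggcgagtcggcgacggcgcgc
Calr: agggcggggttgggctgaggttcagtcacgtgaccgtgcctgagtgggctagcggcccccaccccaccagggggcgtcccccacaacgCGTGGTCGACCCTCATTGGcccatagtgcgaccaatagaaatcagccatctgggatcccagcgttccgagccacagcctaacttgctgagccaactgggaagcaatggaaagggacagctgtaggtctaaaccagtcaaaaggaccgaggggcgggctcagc
Pdia6: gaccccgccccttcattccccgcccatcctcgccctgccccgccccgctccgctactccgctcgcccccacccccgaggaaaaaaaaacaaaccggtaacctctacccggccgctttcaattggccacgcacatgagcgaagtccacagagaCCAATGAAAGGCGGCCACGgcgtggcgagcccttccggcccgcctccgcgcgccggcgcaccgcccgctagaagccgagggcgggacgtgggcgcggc
Creld2: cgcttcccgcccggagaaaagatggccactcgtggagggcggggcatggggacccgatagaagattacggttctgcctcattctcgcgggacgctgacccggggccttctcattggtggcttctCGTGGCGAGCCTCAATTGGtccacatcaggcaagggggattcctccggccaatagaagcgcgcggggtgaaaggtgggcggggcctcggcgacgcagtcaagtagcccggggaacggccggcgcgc
This arrangement of letters is rare: it stood in 19 of the 13331 promoters, or 0.143%, and 10 of those 19 belong to the 33 genes of the folding list that have a promoter sequence. Of the 9 genes of that list that rose and have one, 4 hold it. Ero1b, the only gene of the list that fell, holds it too. So do Hsp90b1, Canx, Dnajc3, Syvn1 and Derl3, which were not called.

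Of 38 genes of folding and stress in the endoplasmic reticulum, 11 rose and 1, Ero1b, fell, with a median of 0.29. Pdia5, a disulfide isomerase, rose furthest, from 8.03, 8.27 and 8.36 to 9.38, 9.69 and 9.69 (1.37 ± 0.16, adjusted p = 4.07e-05). Pdia6 went from 10.65, 10.52 and 10.5 to 11.26, 11.4 and 11.35 (0.78 ± 0.16, adjusted p = 0.00374), and Hyou1, a chaperone, from 9.28, 9.19 and 9.17 to 9.94, 9.97 and 9.99 (0.75 ± 0.13, adjusted p = 0.00149). These rises were below 2-fold in the chaperones, and they exceeded the spread within groups, which stayed under 0.4 units in those 3 genes. Hspa5, the master chaperone BiP, rose by 0.54 ± 0.15 (adjusted p = 0.0209) and was called in 2 of the 6 fits without 1 array.

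In vesicle coats and Golgi traffic 9 of 39 genes rose and 2 fell, with a median of 0.26. Copz2, a coatomer subunit, was at 9.85, 10.52 and 10.12 against 11.35, 11.66 and 11.57 (1.36 ± 0.19, adjusted p = 0.000282). Sec24d, the coat subunit that loads large cargo, rose by 0.74 ± 0.17. The rises in this list numbered 4 without control replicate 1 or arthritic replicate 3, and 5 without control replicate 3, arthritic replicate 1 or arthritic replicate 2, and the falls 0 without control replicate 2 or arthritic replicate 2 or 3 and 1 without control replicate 1 or arthritic replicate 1. Sugar supply and N-glycosylation gave 7 rises and 2 falls of 37, median 0.30. Gmppb, which makes GDP-mannose, was at 7.03, 7.14 and 6.75 against 8.46, 7.96 and 8.29 (1.26 ± 0.23, adjusted p = 0.00156), and Gfpt1, the first enzyme of hexosamine synthesis, rose by 0.93 ± 0.16. Gnpnat1, which acts next in that pathway, fell by 1.13 on the log2 scale (adjusted p = 0.00172).

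Machinery for making or removing proteins in general gave few calls. Among 21 aminoacyl-tRNA synthetases 0 passed the test, as among 35 proteasome genes, and 1 of 39 genes of ribosome biogenesis did, Nop16 (0.77 ± 0.15). Their medians were 0.07, -0.03 and 0.00. Of 36 lysosome and phagosome genes, 5 rose and 0 fell, among them Cd63 (1.05 ± 0.24) and Gla (0.92 ± 0.17), and 13.9% is below the share of all genes. That count was 2 without control replicate 1 or arthritic replicate 2, and 3 without control replicate 3 or arthritic replicate 3.

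Amino acid supply showed particular steps and no shift as a whole, with 5 rises and 4 falls of 31. Slc7a11, the cystine importer that feeds glutathione synthesis, was at 5.44, 6.3 and 6.13 against 7.83, 8.0 and 7.81 (1.92 ± 0.22, adjusted p = 4.35e-05). Aldh18a1, the entry enzyme of proline synthesis, was at 8.98, 9.18 and 8.6 against 10.33, 10.34 and 10.31 (1.41 ± 0.20, adjusted p = 0.00022). The arthritic values of both were close together and clear of the controls. Slc1a5, the glutamine carrier, fell by 1.24 ± 0.23 on the log2 scale. The falls in the list numbered 2 without arthritic replicate 3.

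Detoxifying enzymes fell more often than they rose in the limma fit. Of 35 genes of glutathione, thioredoxin and NADPH oxidase, 10 fell and 5 rose, with a median of -0.06. Ordinary regression called 3 rises and 1 fall. The falls were led by the glutathione transferases Gsta4 (-1.68 ± 0.25), Gsta3 (-1.21 ± 0.22), Mgst1 (-0.99 ± 0.21) and Gstm1 (-0.98 ± 0.23), of which all were called in the 6 fits without 1 array. The 5 rises were those of Gpx7 (0.92), Sod2 (0.66), Txnrd1 (0.66), Prdx4 (0.60) and Prdx1 (0.59), and they numbered 3 without control replicate 1 or 2, 2 without arthritic replicate 1 and 1 without arthritic replicate 3.

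In 44 carriers of water, sugars, nucleosides and organic solutes 6 rose and 11 fell. The rises were Aqp5, a water channel of secretory epithelium, at 6.96, 6.73 and 7.39 against 8.83, 8.88 and 8.31 (1.65 ± 0.22, adjusted p = 0.000149), Slc13a3, a dicarboxylate carrier, at 6.49, 6.96 and 6.78 against 8.18, 8.27 and 8.23 (1.48 ± 0.16, adjusted p = 2.32e-05), and Slc7a7, Slc8a1, Slc15a3 and Slc7a2 with differences of 0.78 to 0.92. All 6 were called in each of the 6 fits without 1 array. The falls included the glycerol channel Aqp7 (-2.51 ± 0.28) and the amino acid carrier Slc36a2 (-2.10 ± 0.26), both markers of fat in the lists used here, and Slco2b1 (-1.95 ± 0.21), and they numbered 7 without arthritic replicate 2. Of 43 ion channels, 4 rose and 9 fell, led by Clic5 and by the potassium channel genes Kcnt2 (-1.64 ± 0.21) and Kcna1 (-1.33 ± 0.24) and the chloride channel of muscle, Clcn1 (-1.26 ± 0.24).

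Receptors that couple to G proteins changed in both directions, 9 of 41 higher and 6 lower. Prokr2, a prokineticin receptor, was at 5.21, 5.34 and 5.43 in the controls and 7.07, 7.33 and 7.03 in arthritis (1.82 ± 0.19, adjusted p = 2.32e-05). Avpr1a, a vasopressin receptor, was at 7.65, 7.84 and 7.43 against 8.91, 9.31 and 9.08 (1.46 ± 0.19, adjusted p = 0.000115). With Bdkrb1, Agtr2 (1.28) and Tacr1 (1.02), the receptor of substance P, they make 5 receptors of peptides with rises above 1 unit. Npy1r, a neuropeptide Y receptor, was at 7.34, 7.88 and 7.61 against 5.72, 5.24 and 5.69 (-2.06 ± 0.19, adjusted p = 6.44e-06). Npr3, the clearance receptor of natriuretic peptides and a marker of fat, fell by 1.62 ± 0.20, and Vipr2, a receptor of vasoactive intestinal peptide, fell by 1.33 ± 0.21.

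Nitric oxide raises cyclic GMP through soluble guanylate cyclase, and both subunits of that enzyme were lower. Gucy1b1 was at 7.17, 7.5 and 7.37 against 5.61, 5.58 and 5.77 (-1.69 ± 0.20, adjusted p = 4.74e-05), and Gucy1a1 at 8.31, 8.75 and 7.8 against 6.56, 6.69 and 6.73 (-1.62 ± 0.27, adjusted p = 0.00078). The groups of both were apart. The kinase Prkg1 (-0.78 ± 0.17), the peptide activated cyclase Npr2 (-1.18 ± 0.25) and the phosphodiesterases Pde2a (-1.22 ± 0.16) and Pde5a (-0.74 ± 0.18) also fell. Upstream, Ddah1 rose as given above and Nos2, the inducible nitric oxide synthase, went from 6.19, 5.53 and 5.9 to 6.71, 6.91 and 6.9 (0.97 ± 0.17, adjusted p = 0.00135). Nos2 was set aside as an inflammation gene and is added here after its values were seen. Over the whole list of cyclic nucleotide turnover 12 of 37 fell and 2 rose, median -0.19. Vascular smooth muscle, which uses this pathway, was lower too: 9 of 19 of its markers fell and 1 rose, with list means of 8.81, 8.8 and 8.58 against 8.0, 8.0 and 8.13, and Myh11, its myosin, fell by 1.78 ± 0.18. The part of smooth muscle in the fall of cyclic GMP genes was not tested.

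**Figure D4:**
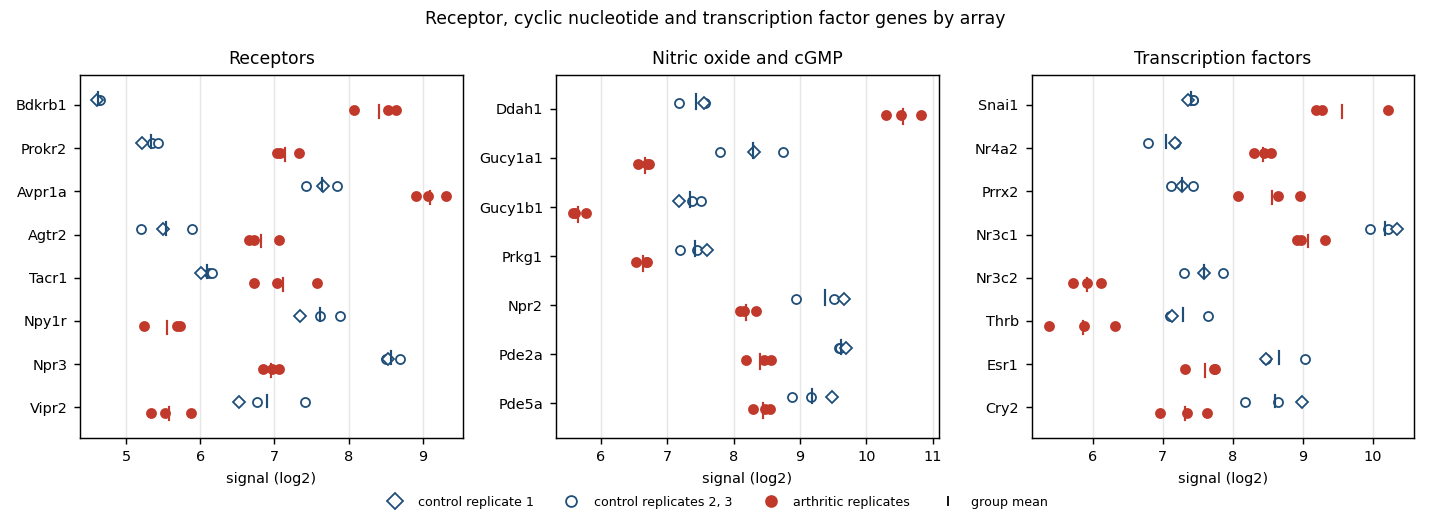
Log2 signal (horizontal axes) of receptor genes, genes of nitric oxide and cyclic GMP, and transcription factor genes in each Mmp8+/+ ankle, with open symbols for controls (replicate 1 as a diamond), filled symbols for arthritic mice and ticks for group means. In each gene drawn the groups do not overlap, as in nearly all called genes. Ddah1 lies to the right of its controls while both cyclase subunits lie to the left of theirs.

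Ordinary regression called 0 genes of purine signalling. In the limma fit they were called in 47.8% of 23, 5 higher and 6 lower. P2rx1, the ATP gated channel of platelets, was at 8.45, 8.57 and 8.25 against 5.76, 6.12 and 7.23 (-2.05 ± 0.29, adjusted p = 0.000274), with arthritic replicate 3 nearest to the controls. P2ry1 (-1.14 ± 0.20) and P2ry12 (-0.99 ± 0.28), the ADP receptors of platelets, fell as well, P2ry12 being called in 1 of the 6 fits without 1 array. The count of rises was 1 without control replicate 1 or arthritic replicate 1, 2 without arthritic replicate 2 or 3, and 3 without control replicate 3, and that of falls was 3 without control replicate 1 or arthritic replicate 2 or 3.

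Growth factor receptors and guidance molecules fell more often than they rose in the limma fit, as did all genes (11.4% lower, 7.57% higher). Among 51 receptor tyrosine kinase genes and their ligands 7 rose and 14 fell. Ereg, an EGF receptor ligand, was at 4.73, 5.19 and 5.21 against 6.68, 6.42 and 6.49 (1.48 ± 0.25, adjusted p = 0.000844), while another ligand of that receptor, Hbegf, was at 10.4, 10.13 and 9.77 against 8.89, 8.44 and 8.66 (-1.43 ± 0.18, adjusted p = 9.56e-05). Ret (0.71) and its coreceptor Gfra1 (0.95), which receive GDNF, rose together. Falls in this list numbered 8 without control replicate 2 or arthritic replicate 1 and 9 without control replicate 1. Ordinary regression called 2 rises and 1 fall in it.

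Of 50 semaphorin, ephrin, slit and netrin genes, 13 fell and 7 rose, median -0.12. The falls were led by 4 semaphorins, Sema3d (-2.07 ± 0.24), Sema3e (-2.06 ± 0.22), Sema5a (-1.45 ± 0.20) and Sema3c (-1.32 ± 0.22), secreted or membrane bound cues that mostly repel axons and vessels. Sema3e was at 8.43, 8.37 and 8.06 in the controls and 6.34, 6.22 and 6.13 in arthritis, and neither group spanned 0.4 units. Ephb3 (1.12 ± 0.16) and Efna2 (1.06 ± 0.18) rose. The rises numbered 4 without control replicate 1 or 3 or arthritic replicate 1 or 3. Ordinary regression called 1 rise and 6 falls in the list.

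Of 38 hedgehog, Notch and Hippo genes 6 fell and 2, Notch4 (0.52) and Tead2 (0.56), rose, 21.1%, close to the background. Hhip, an inhibitor that the pathway induces, was at 7.85, 7.91 and 7.52 against 5.39, 5.84 and 5.63 (-2.14 ± 0.19, adjusted p = 3.83e-06), and Ptch1, the receptor that it induces, at 8.81, 9.19 and 8.55 against 7.52, 7.58 and 7.5 (-1.32 ± 0.20, adjusted p = 0.000391). The coreceptor gene Boc fell by 1.02 ± 0.17. These 3 were called in every fit without 1 array, and the rises numbered 0 without control replicate 1 or arthritic replicate 2 or 3 and 1 without any other array.

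In the list of nuclear hormone receptors 7 of 29 were lower and 0 higher, median -0.10. Nr4a2, an orphan receptor that rose, was placed in the list of immediate early and stress factors, given below. Nr3c2, the mineralocorticoid receptor, was at 7.59, 7.86 and 7.3 against 6.12, 5.92 and 5.71 (-1.67 ± 0.18, adjusted p = 2.31e-05), and Nr3c1, the glucocorticoid receptor, at 10.35, 9.96 and 10.22 against 9.32, 8.92 and 8.97 (-1.11 ± 0.17, adjusted p = 0.000395). The others were Rarb (-1.54 ± 0.25), Thrb (-1.44 ± 0.25), Esr1 (-1.06 ± 0.22), Thra (-0.53 ± 0.17) and Pparg (-1.71 ± 0.26), the regulator of fat cells. The values of each gene were apart between groups, as in nearly all called genes. Of the 7, 6 were called in all 6 fits without 1 array, Thra in none. Klf9 (-0.74) and Tsc22d3 (-0.66), known as targets of the glucocorticoid receptor, fell in the list of stress factors, Tsc22d3 in 4 of the 6 fits without 1 array. Klf9 and Tsc22d3 were chosen after their values were seen, and activity of the receptor was not tested.

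Of 20 clock genes, 4 fell and 1 rose, with a median of -0.34. Cry2, a repressor of the clock, was at 8.99, 8.65 and 8.18 against 6.96, 7.63 and 7.34 (-1.30 ± 0.22, adjusted p = 0.00116), and Cry1 at 8.21, 8.08 and 8.09 against 7.38, 7.3 and 7.23 (-0.83 ± 0.15, adjusted p = 0.00178). The activator Hlf (-0.60 ± 0.15) fell and Nfil3, which competes with it for the same DNA element, rose by 0.75 ± 0.20. The falls numbered 2 without control replicate 2 or arthritic replicate 1. The time of day of killing is not in the labels, so a shift of phase between groups cannot be told apart from arthritis. The E-box CACGTG, read by the clock's activators, stood in the 250 bases before 5 of 17 clock genes with a sequence and of 8.91% of all 13331.

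Among stress induced and mesenchymal transcription factors there were both rises and falls. Snai1, a repressor known from epithelial to mesenchymal change, was at 7.36, 7.43 and 7.43 in the controls and 9.28, 10.22 and 9.19 in arthritis (2.15 ± 0.24, adjusted p = 4.08e-05). Nr4a2, an orphan receptor induced by growth signals, rose by 1.38 ± 0.23, Prrx2, a homeobox gene of limb mesenchyme, by 1.30 ± 0.21, and Fosl2, an AP-1 subunit, by 0.96 ± 0.15. Each was called in every fit without 1 array. Dlx5, a homeobox gene of bone formation, was at 9.32, 9.78 and 8.6 against 8.08, 8.14 and 7.53 (-1.32 ± 0.26, adjusted p = 0.00322). In all, 8 of 37 immediate early and stress factors rose and 3 fell, and of 55 mesenchymal and patterning factors 9 rose and 8 fell. Without arthritic replicate 1 the rises of the first list numbered 4 and without arthritic replicate 2 its falls numbered 1, and in the second list the rises numbered 5 without control replicate 1 or 2 or arthritic replicate 1 or 2, and the falls 5 without control replicate 1 or 2 and 0 by ordinary regression.

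Among 45 inhibitors of signalling inside the cell 5 rose and 8 fell. Socs3, which limits IL-6 type signalling, was at 7.86, 7.46 and 7.38 against 9.47, 9.11 and 9.27 (1.72 ± 0.20, adjusted p = 5.32e-05). Rgs18, a regulator of G protein signalling in platelets and myeloid cells, was at 10.08, 10.2 and 10.04 against 8.01, 7.84 and 8.82 (-1.88 ± 0.28, adjusted p = 0.000413). Rasd1 (-1.71 ± 0.26) and Bambi (-1.45 ± 0.28), a decoy receptor of the TGF-beta family, fell too. The rises numbered 3 without control replicate 1, 2 or 3 or arthritic replicate 3, and 2 without arthritic replicate 1.

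In the nonmuscle actin cytoskeleton 11 of 49 genes rose and 3 fell. Fscn1, the actin bundling protein of migrating cells, was at 8.63, 9.08 and 8.5 against 10.15, 10.43 and 10.46 (1.61 ± 0.17, adjusted p = 2.32e-05), and Marcksl1 rose by 1.04 ± 0.19, while Myl9, a smooth muscle light chain, fell by 1.05 ± 0.20. Only these 3 were called in all 6 fits without 1 array. The rises numbered 4 without control replicate 1, 5 without control replicate 3 or arthritic replicate 2, 6 without arthritic replicate 3 and 7 without arthritic replicate 1. Of the genes of DNA replication and mitosis 1 of 39, Tpx2 (0.67 ± 0.22, adjusted p = 0.0497), was called, in none of the fits without 1 array, and the median was 0.09. Of 31 p53 targets and regulators of apoptosis 6 rose and 1 fell, among them Gadd45b (1.12 ± 0.20) and Bcl2 (-0.91 ± 0.22), and the rises numbered 2 without control replicate 1 or arthritic replicate 2 and 3 without control replicate 3 or arthritic replicate 1.

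Imprinted genes, of which 1 parental copy is silent, gave 3 rises and 3 falls among 23. Mest was at 7.61, 8.57 and 7.27 in the controls and 10.95, 11.07 and 10.99 in arthritis, a 9.09-fold rise (3.18 ± 0.31, adjusted p = 1e-05), while fat markers, among which the lists count Mest, otherwise fell. Grb10, an adaptor that restrains insulin signalling, was at 9.25, 9.1 and 9.16 against 10.48, 10.37 and 10.49 (1.28 ± 0.15, adjusted p = 4.57e-05), and did not overlap between groups. The falls were led by that of Nnat, neuronatin, which was called in all 6 fits without 1 array. Falls numbered 1 without control replicate 1 or 2 or arthritic replicate 2, and rises 5 without control replicate 3 and 2 without arthritic replicate 2.

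The array also has features for miRNA hairpins, which read the hairpin in its precursor or host transcript and not the mature miRNA. Of 140 tested, 11 were higher and 3 lower, 10.0%, below the share of all genes, and 118 of the 140 differences were above 0, with a median of 0.24. The 2 that were called in all 6 fits without 1 array were both lower. Mir142, a hairpin of blood cells, was at 6.34, 6.39 and 6.31 against 5.65, 5.83 and 5.67 (-0.63 ± 0.14, adjusted p = 0.00752), and Mir568 at 6.01, 5.59 and 5.23 against 4.58, 4.67 and 4.56 (-1.0 ± 0.23, adjusted p = 0.00692). The arthritic values of Mir568 lay under the lowest mean signal tested, so its fall is at least 1.6-fold. Mir335, which lies within Mest, was at 5.67, 5.46 and 5.95 against 6.43, 6.13 and 6.38 (0.62 ± 0.20, adjusted p = 0.0447), and was called in 1 of the 6 fits. The mature sequences of these 3 hairpins are shown from RefSeq (GRCm38.p6), 5′ to 3′, with the seed (bases 2 to 8) in capitals. No seed is shared among them. The coordinates are chr11:87756867-87756887 and chr11:87756903-87756925 for the arms of Mir142, chr16:43640665-43640684 for Mir568, and chr6:30741314-30741336 and chr6:30741354-30741375 for the arms of Mir335, all on the plus strand.
mmu-miR-142a-5p: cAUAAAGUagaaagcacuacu
mmu-miR-142a-3p: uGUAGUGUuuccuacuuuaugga
mmu-miR-568: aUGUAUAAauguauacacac
mmu-miR-335-5p: uCAAGAGCaauaacgaaaaaugu
mmu-miR-335-3p: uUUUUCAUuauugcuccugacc

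**Figure D5:**
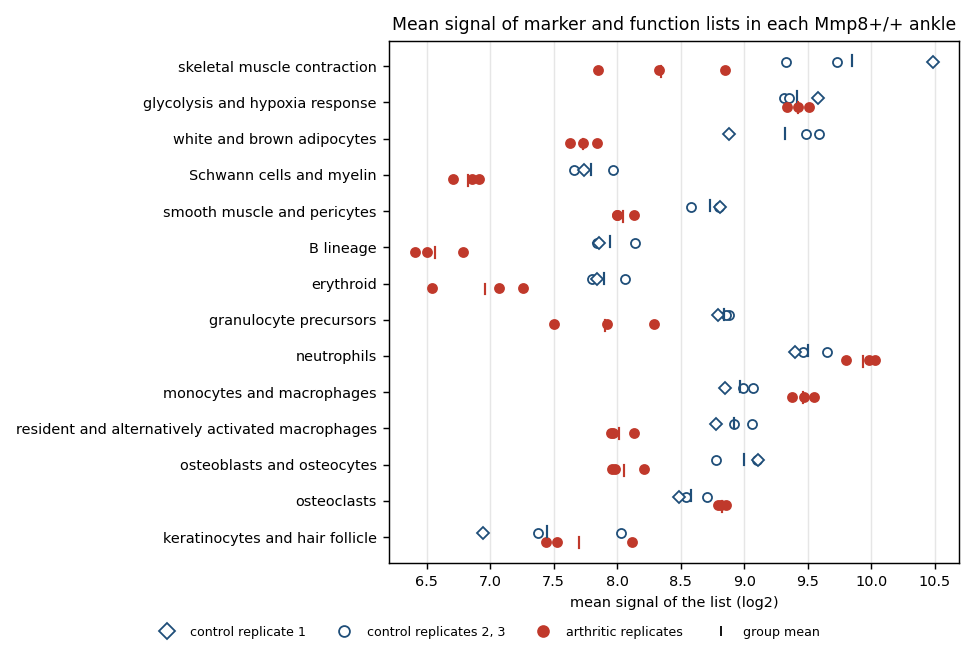
Mean log2 signal (horizontal axis) of all tested genes of 14 lists in each Mmp8+/+ ankle, with open symbols for controls (replicate 1 as a diamond), filled symbols for arthritic mice and ticks for group means. The means of the adipocyte, myelin, B lineage and osteoblast lists are lower in every arthritic ankle than in any control, that of osteoclasts is higher, and the epidermal list varies more within groups than between them.

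Markers of cell types were read as lists, and these do not locate a change within the joint. Of 21 fat cell markers 19 fell and 1, Mest, rose, with a median of -1.95 and list means of 8.88, 9.59 and 9.49 against 7.84, 7.63 and 7.73. The adiponectin gene, Adipoq, was at 9.94, 10.65 and 10.58 against 8.27, 7.52 and 7.66 (-2.58 ± 0.37, adjusted p = 0.000295). In the B lineage 20 of 25 fell and 0 rose, with list means of 7.86, 8.14 and 7.84 against 6.41, 6.5 and 6.79. It covered mature B cells (Ms4a1, at 8.84, 9.09 and 8.61 against 5.88, 5.31 and 6.3) as well as precursors of the marrow (Rag1, -1.99, and Igll1, -1.95). Neither list changed its count of falls by more than 2 in any fit without 1 array.

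Among nerve sheath genes the calls were all falls, 14 of 19 Schwann cell and myelin genes lower and 0 higher, median -0.90. S100b, a marker of Schwann cells, was at 8.86, 8.52 and 8.39 against 6.52, 6.47 and 6.25 (-2.18 ± 0.23, adjusted p = 2.31e-05), and Mal, a protein of myelin, at 8.49, 9.01 and 8.41 against 6.75, 6.45 and 6.8 (-1.97 ± 0.21, adjusted p = 2.31e-05). Drp2 (-2.10 ± 0.30) and Ugt8a (-2.09 ± 0.29), which act in myelin structure and in its lipid synthesis, fell by as much. The list means were 7.74, 7.97 and 7.66 in the controls and 6.91, 6.86 and 6.71 in arthritis, without overlap.

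Lists of other marrow lineages also held mostly falls. Of 27 erythroid genes, 14 fell and 0 rose, led by Car1 and by Alas2 (-2.45 ± 0.34), the first enzyme of heme synthesis in red cells, and of 13 genes of granulocyte precursors 8 fell and 1, Hp, rose. Arthritic replicate 1 had the lowest mean of both lists, 6.54 and 7.5, against 7.07 to 7.26 and 7.92 to 8.29 in the other arthritic ankles. The erythroid falls numbered 8 without control replicate 2 and 9 without arthritic replicate 1, and those of granulocyte precursors 5 without control replicate 1 or arthritic replicate 1 or 2. T and NK cell genes gave 9 falls and 1 rise of 26, among them Gzma (-1.92 ± 0.33) and Cd2 (-1.71 ± 0.21), with 5 falls without arthritic replicate 2.

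Neutrophil markers changed in both directions, and 12 of 22 did not pass. Of the 22, 7 rose, in every fit without 1 array: Clec4d (2.48), Clec4e (2.11), Il1r2 (1.85), Trem1 (1.59), Csf3r (1.35), Hdc (1.35) and Cxcr2 (1.34), which are surface receptors of mature cells apart from Hdc, the enzyme that makes histamine. The 3 that fell, Camp (-1.47), Ltf (-1.18) and Ngp (-0.91), encode proteins of secondary granules, which are made in marrow precursors, and they were called in the fit without arthritic replicate 3 and in none of the other 5 fits without 1 array. Clec4d was at 7.52, 7.2 and 7.56 against 10.12, 9.82 and 9.77 (adjusted p = 2.4e-06). S100a8, an abundant neutrophil protein, was at 11.45, 11.49 and 11.97 against 11.47, 11.71 and 11.81, and its partner S100a9 differed by -0.24 ± 0.23. Neither passed the test.

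Of 25 markers of monocytes and macrophages 6 rose and 1 fell, median 0.40, with Arg1, Ms4a7 (1.87 ± 0.31) and Cd14 (1.5 ± 0.18) in front. Of 21 markers of resident and alternatively activated macrophages 10 fell and 2, Fcrls (1.55) and Stab1 (0.66), rose, median -0.73. Retnla, a secreted protein of alternatively activated macrophages, had the largest fall of any gene named here, from 8.97, 9.79 and 10.08 to 5.4, 4.78 and 5.05 (-4.53 ± 0.31, adjusted p = 5.63e-07). Timd4, a phagocytic receptor of resident cells, was at 7.73, 8.18 and 7.4 against 5.19, 5.48 and 5.51 (-2.38 ± 0.20, adjusted p = 2.41e-06). Lyve1 (-2.58), which resident macrophages share with lymphatic endothelium, fell together with the lymphatic genes Stab2 (-2.28 ± 0.21) and Mmrn1 (-1.89 ± 0.36), while Pdpn of the same list rose.

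In the bone lists 9 of 15 genes of osteoblasts and osteocytes fell and 1, Pdpn, rose, and 4 of 19 osteoclast genes rose and 2 fell. Dmp1, a matrix protein of osteocytes, was at 9.33, 8.98 and 8.95 against 6.83, 6.37 and 6.79 (-2.42 ± 0.38, adjusted p = 0.000509). The osteoclast rises were those of Oscar (0.99 ± 0.17), Ocstamp (0.87 ± 0.17), Rufy4 (0.84 ± 0.18) and Jdp2 (0.66). The osteoclast falls included that of Car2, given above, which was larger than any of these rises. Of 20 synovial fibroblast genes 6 fell and 3 rose, the rises being Pdpn, Has2 (1.51) and Thy1 (1.10), and the falls including Htra4 (-3.55 ± 0.30), Clic5 and Hbegf, and all 9 were called in every fit without 1 array. Of 26 chondrocyte genes 9 fell and 3 rose, with Cytl1, a secreted protein of cartilage, at 11.57, 12.06 and 11.15 against 7.08, 7.21 and 7.0 (-4.50 ± 0.34, adjusted p = 1.26e-06), and of 15 tendon genes 5 rose and 3 fell. The chondrocyte rises, of Epyc (1.03), Acan (0.71) and Sox9 (0.57), numbered 2 without control replicate 1, 0 without arthritic replicate 3 and 1 without any other array.

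Skin and blood vessel endothelium had the lowest shares called, 3.03% and 23.3%, among the cell lists with over 20 genes. The share of endothelium is close to the 19.0% of all genes. Among smaller lists, that of class II antigen presenting cells (6.25% of 16) was below 19.0%. That of sweat and sebaceous gland and melanocytes (22.2% of 18) was close to it. Of 33 epidermal and hair genes 1, Elovl4 (1.01 ± 0.33, adjusted p = 0.0456), was called, in none of the fits without 1 array, with list means of 6.94, 8.03 and 7.38 against 7.53, 8.12 and 7.44. Of 30 endothelial genes 3 rose and 4 fell, median 0.06, led by Esm1 (-2.32 ± 0.30) and by the pair of ligand and receptor Apln (1.25 ± 0.18) and Aplnr (1.32 ± 0.17). The falls numbered 2 without control replicate 1 or arthritic replicate 1. Apln and Aplnr were at 6.8, 7.22 and 6.68 against 7.98, 8.21 and 8.26 and at 8.26, 8.24 and 8.09 against 9.5, 9.39 and 9.64. For both the groups were apart.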

How the data were processed

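Gene expression was measured on Affymetrix Mouse Gene 1.0 ST arrays in 12 ankles, 3 in each of 4 groups. The authors deposited log2 values made by Robust Multichip Average (RMA: background correction, quantile normalization and a summary of probes), and the submitters' notes also name Partek. No replicates were pooled, and 0 columns of values were left out. Quantile normalization forces a like distribution on every array, so a shift of all genes could not be seen, and the authors' filter on background could not be repeated.

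Of 28853 features, 21789 carry 1 gene symbol, 1621 several and 5443 none, by the array annotation given with the data, and 21698 matched a gene identifier in RefSeq of GRCm38.p6. The 18495 features with 1 symbol and the highest mean over 12 arrays were tested, a number taken from the study's methods, and a gene is its feature with the highest mean. limma 3.58.1 in R 4.3.3 fitted 1 mean per group over the 12 arrays with 8 residual degrees of freedom. P-values are two-sided and were adjusted by Benjamini-Hochberg at 5%. Replicates are separate mice.

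Lists and rules were written by hand with earlier results of these data known, so they are descriptions and not independent support. Named are the 15 largest rises and falls among called genes whose groups do not overlap, outside genes set aside (matrix and its proteases, cytokine and inflammation, lipid and detoxification), and up to 4 called genes with the largest difference per list. Other genes named complete a list or a pathway and were chosen after their values were seen. The fit was tested on simulated data in which 200 of 18495 features were changed. It recovered 8.8% of changes of 0.5 log2 units, 60.3% of those of 1 and 100% of those of 2. In the data 19.0% of genes were called, a far larger share, so these rates hold for the simulated setting only. Alternatives were the 6 Mmp8+/+ arrays alone, ordinary linear regression, trend and robust moderation, array weights, other filters and scalings, and fits without arrays. Python 3.11.15 scripts searched promoters and drew the figures.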

Additional observations from a re-analysis of the deposited data

Results flagged for a closer look

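Features of the array without a usable gene name lie outside the comparison above. In a fit over every feature of the array, chosen after seeing the data, 315 of the 5443 features with no gene symbol and 112 of the 1621 features with several symbols differed between arthritic and control Mmp8+/+ ankles at an FDR of 5% (limma). Of the features with no symbol, 183 were higher and 132 lower, and of those with several, 46 were higher and 66 lower. Their identity was not analysed here.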

How the results depend on the processing

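Fits that left out 1 Mmp8+/+ array gave 1935 to 3264 called genes, 688 to 1353 higher and 1247 to 1911 lower. Ordinary linear regression over the 6 Mmp8+/+ arrays gave 775 called genes (355 higher, 420 lower), which has 4 residual degrees of freedom in place of moderated variances. Leaving out both arrays with Xist signal gave 1781 (616 higher, 1165 lower), and leaving out the Mmp8-/- control with Mmp8 signal as well gave 1584 (523 higher, 1061 lower). Array weights raised the higher genes to 1974. The other alternatives stayed within 1.5 times each count, and quantile normalization of the tested features gave 1492 higher and 1642 lower genes. Of 208 genes named by rule, 99 were called under every alternative that tested them and 175 under every one but ordinary regression, and 0 reversed. No paired analysis was possible because the labels give no replicate numbers, and those used here follow the order of deposition.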
